A study of Saccharomyces cerevisiae with 12 samples.

Results

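The response of wild-type budding yeast to poacic acid was measured by RNA sequencing of Saccharomyces cerevisiae BY4741. Untreated cultures were compared with cultures that had received poacic acid at 100 µg/ml 1 h earlier, and each group held 3 libraries. BY4741 is a haploid laboratory strain of mating type a with deletions at LEU2, MET17, URA3 and HIS3, and the labels call it wild type. Per the labels, all cultures were diluted to an optical density of 0.2 and grown to 0.5 before the compound was added, and each of the 3 biological samples was sequenced without and with the compound. Poacic acid is a plant-derived stilbenoid that binds the glucan of the yeast cell wall. The series as a whole holds 12 libraries, the other 6 being from a slt2 mutant of the same background. A gene entered the comparison if it read at least 1 RPKM (reads scaled to gene length and to the size of the library) in at least 3 of the 6 wild-type libraries, which kept 6102 of 7126 genes, among them 6095 protein-coding genes.

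The wild-type libraries held 5456607 to 10542488 reads, so that 1 read in a gene of 1 kb was worth 0.0949 to 0.183 RPKM and a floor of 3 reads 0.285 to 0.550 RPKM. The strain markers LEU2 and URA3 read 0 in all 6 libraries, MET17 read 0.134 RPKM in 1 of them, and HIS3, which is only partly deleted in this strain, read 39.1 to 57.8 RPKM. The 6 markers of a cells summed to 583 to 663 RPKM in untreated and 288 to 569 RPKM in treated libraries, while the 4 markers of alpha cells summed to 15.7 to 20.3 and 14.8 to 17.3 RPKM. The a-cell sum came mainly from STE2, BAR1, AGA2 and STE6. The a-factor genes MFA1 (0 to 3.42 RPKM) and MFA2 (4.77 to 10.5 RPKM) read no higher than the alpha markers SAG1 (8.15 to 11.9 RPKM) and MF(ALPHA)2 (4.96 to 10.4 RPKM). Correlation across genes was 0.981 to 0.984 between untreated libraries and 0.952 to 0.974 between treated libraries, and treated replicate 1 was as close as 0.979 to untreated replicate 3. Among the wild-type libraries treated replicate 3 stood apart. Ribosomal RNA took 5.16% of its reads in listed genes, against 2.66% and 0.104% in the other treated libraries and 0.0915 to 0.735% in the untreated ones. In the slt2 libraries this share was 4.88 to 6.66%. The median log2 difference of treated replicate 3 from the untreated mean was −1.34 over 19 genes of the mitochondrial genome, against 0.09 and 0.16 in the other 2 treated libraries. It was −0.79 over the a-cell markers, against 0.00 in both others. The part of these differences in the results was not tested, and the adjusted p without this library is given beside calls of named genes that were lost without it.

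The yeast wall is a mesh of glucan and chitin with mannoproteins attached through GPI remnants or, for the PIR proteins, through alkali-sensitive bonds to glucan. Damage to it is sensed by membrane proteins such as Mid2 and Wsc1, which activate the GTPase Rho1 and protein kinase C. A MAP kinase cascade then runs through Bck1 and the Mkk1 and Mkk2 kinases to Slt2, which activates the transcription factor Rlm1. Growing cells also keep a large program of ribosome construction, which many stresses reduce.

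The short sequences that recur before the start codons of the changed genes are shown first, since the results below return to them. The Rlm1 consensus reads CTA, then 4 bases that are A or T, then TAG, and was searched for in the 500 bases before each start codon. Of 6076 tested genes with such a window 102 (1.68%) held a match, while 28 of the 245 genes that rose (11.4%) and 4 of the 124 that fell (3.23%) did. Matches lay before 5 of the 20 largest rises and before YLR112W, the largest ranked fall. The first are printed below, 5′ to 3′ along the coding strand, with the match in capitals and 10 bases on each side, from the RefSeq R64 genome, together with KTR2, PST1 and RLM1, the gene of the factor itself.
PIR3: gattagcaaaCTAATTATAGatcaaaggcc
CWP1: tacgtcataaCTAAAAATAGcgttagccac
CRG1: tttccacgatCTATATTTAGcattctaatt
AFR1: ggaacagcgcCTAAAAATAGatgggcactc
SED1: gcatatatcgCTAAAATTAGccatcagaac
KTR2: ttttgtctaaCTAATTATAGcattaataaa
PST1: ttacgagtctCTAAAAATAGcgtaggcaca
RLM1: gagatgaaagCTAATAATAGaaacagctcg
The printed stretches are chrXI:144111-144140 (plus strand, 270 bases between the match and the start codon) for PIR3 and chrXI:260736-260765 (plus, 376 bases) for CWP1. They are chrVIII:519282-519311 (plus, 135 bases) for CRG1, chrIV:616480-616509 (minus, 339 bases) for AFR1 and chrIV:600303-600332 (plus, 470 bases) for SED1. The last are chrXI:557400-557429 (plus, 257 bases) for KTR2, chrIV:563212-563241 (plus, 295 bases) for PST1 and chrXVI:381439-381468 (minus, 298 bases) for RLM1. CWP1, AFR1 and PST1 shared the same central letters. A match is a description of these letters and was not tested as a binding site.

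The genes that fell carried other letters. The PAC element GCGATGAG, known from genes of ribosome construction, lay on either strand before 38 of the 124 genes that fell (30.6%), 4 of the 245 that rose (1.63%) and 289 of all 6076 (4.76%). It lay before 6 of the 15 largest falls, which are printed in the same way. Where the match reads CTCATCGC, the element lies on the other strand.
NCE102: aatttttctgCTCATCGCgcttttttaa
NIP7: tttgaaatatGCGATGAGcttagaacta
LYS20: ttttaagggcCTCATCGCtggccatttt
RKI1: aaatttttttGCGATGAGggaaaagcga
URB1: agcaataaagCTCATCGCaaagaatagt
UTP10: ttttcagttaGCGATGAGctagatattt
These stretches are chrXVI:829789-829816 (plus) for NCE102, chrXVI:153362-153389 (plus) for NIP7, chrIV:133260-133287 (plus) for LYS20, chrXV:504564-504591 (minus) for RKI1, chrXI:416997-417024 (minus) for URB1 and chrX:217394-217421 (minus) for UTP10. NIP7, URB1 and UTP10 encode factors of ribosome assembly. NCE102, LYS20 and RKI1 encode a membrane protein, an enzyme of lysine synthesis and an enzyme of the pentose phosphate pathway. RKI1 held a further match at chrXV:504587-504614.

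Poacic acid was followed by more and larger rises than falls. Of the 6102 genes, 369 (6.05%) passed an adjusted p of 0.05 (limma on log2 of RPKM + 1, with Benjamini-Hochberg adjustment over all 6102), 245 of them higher (4.02%) and 124 lower (2.03%). The counts of the gene lists below are to be read beside these shares. When each library was instead scaled to the total of its protein-coding genes, which moved the median of all genes to 0.10 on the log2 scale, the split was 311 higher and 70 lower. Of the rises 94 (1.54% of genes) were at least 2-fold and 16 at least 4-fold, whereas 6 falls (0.0983% of genes) reached 2-fold and 0 reached 4-fold. The genes that rose had a median level of 25.2 RPKM without and 48.6 RPKM with the compound, and those that fell went from a median of 79.0 to 52.0 RPKM. All 3 treated libraries lay above all 3 untreated ones in 814 genes (13.3%) and below them in 584 (9.57%). In 110 of the rises and 20 of the falls the call held when any 1 of the 6 libraries was left out, and 135 of the rises and 35 of the falls held without treated replicate 3. Libraries were not paired in the fit used here. A fit that paired libraries of the same replicate number called 370 genes higher and 311 lower.

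**Figure D1:**
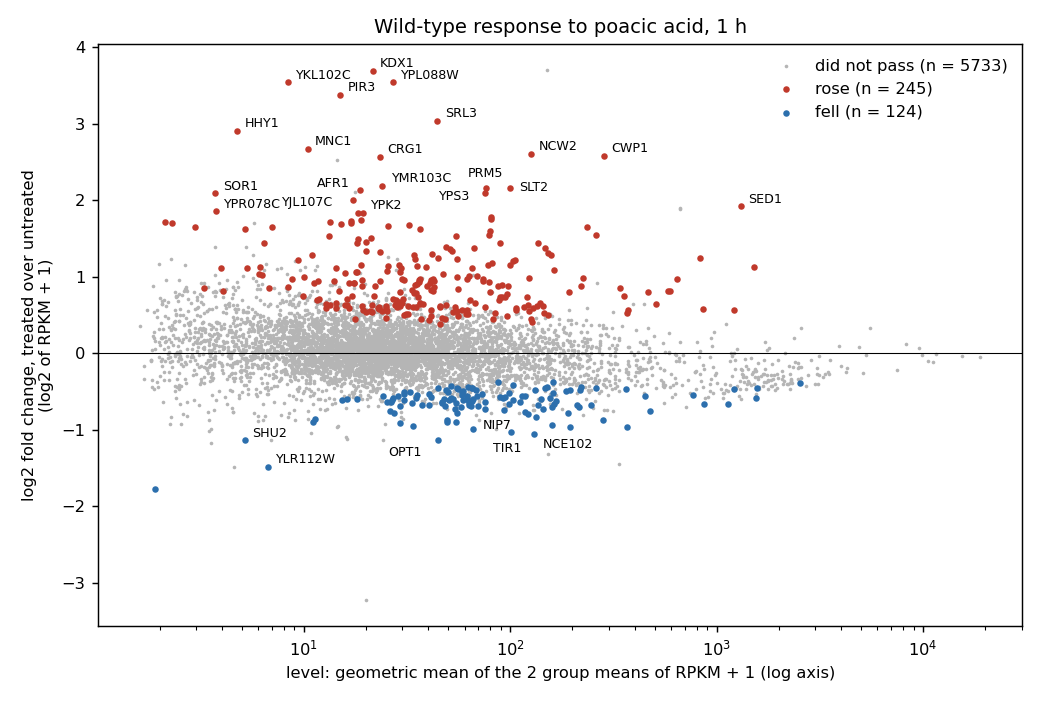
Each point is 1 of 6102 genes, with its level (geometric mean of the group means of RPKM + 1, log axis) against its log2 fold change, red for the 245 that rose and blue for the 124 that fell. The 20 largest rises and 6 of the largest falls are named. Rises reach 3.70 (KDX1), and SED1 has the highest level of the named rises. No ranked fall is larger than that of YLR112W at −1.49.

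The largest rise was that of KDX1, which encodes a kinase-related protein that resembles Slt2 (chrXI:149386-150687, minus strand). It read 5.54, 5.23 and 4.06 RPKM in the untreated and 65.5, 96.5 and 68.4 RPKM in the treated libraries, a log2 fold change of 3.70 ± 0.22 (standard error, limma, adjusted p = 1.3e-06). The lowest treated value lay far above the highest untreated one. Groups without overlap were a condition for the ranked rises and falls, so their lack of overlap is no further evidence. YPL088W, annotated as a putative aryl alcohol dehydrogenase (chrXVI:381965-382993, plus strand), read 7.57, 6.09 and 6.94 RPKM without and 79.6, 86.7 and 107 RPKM with the compound (3.54 ± 0.24, adjusted p = 1.92e-06). Its groups were as far apart. AAD3, an aryl alcohol dehydrogenase gene on the same list of enzymes of phenolic and aldehyde handling, read 12.9, 13.3 and 13.4 RPKM and then 13.1, 16.8 and 12.1 RPKM (0.07, adjusted p = 0.846). Of the 16 tested genes of that list 2 rose and 0 fell, the other being ARI1, an aldehyde reductase gene (1.01, adjusted p = 0.0016). PAD1 and FDC1, whose enzymes decarboxylate cinnamic and ferulic acids, gave −0.74 (adjusted p = 0.306) and −0.14 (adjusted p = 0.637), and these 3 genes were named after their values were seen.

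SRL3 (chrXI:611525-612265, plus strand), which encodes a repressor of the G1 transcription factor SBF, read 13.3, 14.3 and 15.2 RPKM and then 113, 100 and 171 RPKM (3.04 ± 0.25, adjusted p = 1.08e-05). CRG1 (chrVIII:519437-520312, plus strand), a methyltransferase gene of lipid homeostasis, read 8.56, 8.59 and 8.45 RPKM and then 46.4, 72.5 and 51.0 RPKM (2.57 ± 0.36, adjusted p = 0.000774). The untreated values of CRG1 were nearly equal, and the groups of both genes stood far apart. Other ranked rises were AFR1, required for the mating projection (2.13), PRM5, a membrane protein gene known to follow wall integrity signalling (2.16), and YPK2, a kinase gene of the TORC2 pathway (1.83). MNC1 (2.67) overlaps YBR056C-B, YPS3 (2.10) overlaps YLR120W-A, YJL107C (2.00) overlaps PRM10, and YPR078C (1.86) overlaps YPR077C. Reads of each pair may not be separable. The same limit holds for some genes named below, among them GPD1, CMP2 and PDI1, which also overlap another gene. SOR1, a sorbitol dehydrogenase gene with a near-identical copy, read 3.09, 0 and 0 RPKM and then 6.31, 5.48 and 5.72 RPKM, and its call was lost without untreated replicate 2 (adjusted p = 0.125, against 0.0267 with all libraries) and without treated replicate 3 (0.0822).

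**Figure D2:**
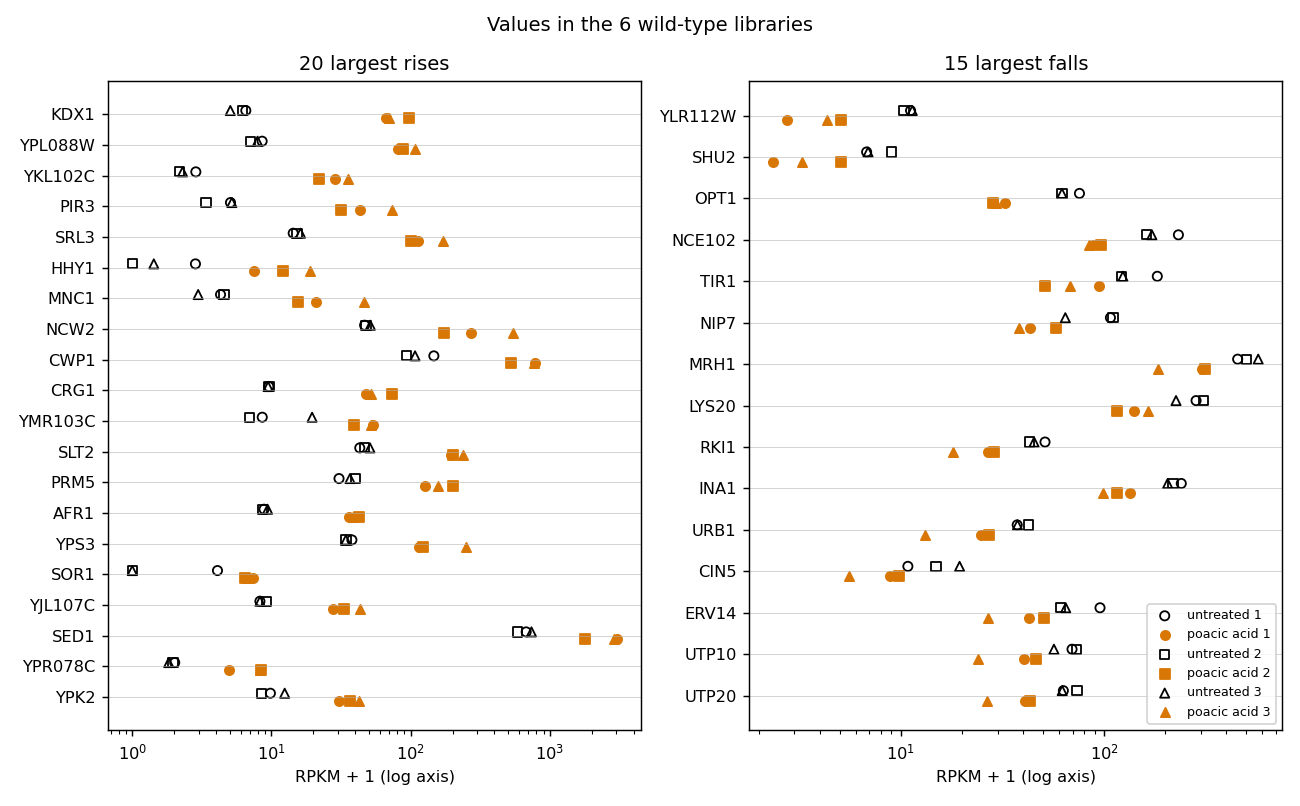
Values of RPKM + 1 (log axis) in each of the 6 wild-type libraries for the 20 largest rises (left) and 15 largest falls (right), open black for untreated and filled orange for treated libraries, with the replicate number by shape. Wide gaps separate the groups of KDX1 (4.06 to 5.54 RPKM untreated, 65.5 to 96.5 treated), YPL088W and YKL102C, while the falls show smaller gaps, as in CIN5.

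Among the genes of the wall integrity pathway, SLT2, its relative KDX1 and the factor gene RLM1 rose. SLT2 itself (chrVIII:168890-170344, minus strand) read 42.1, 45.8 and 50 RPKM without and 194, 199 and 236 RPKM with the compound (2.16 ± 0.15, adjusted p = 1.92e-06). With KDX1 and RLM1, which read 27.3, 30.1 and 26.4 RPKM and then 72.4, 53.8 and 77.7 RPKM (1.24 ± 0.16, adjusted p = 0.000292), it made up the 3 rises among 8 tested genes of the cascade and its transcription factors. The kinase genes upstream of SLT2 did not pass, with BCK1 at 0.01 (adjusted p = 0.984), MKK1 at 0.12 (0.629), MKK2 at 0.06 (0.869) and PKC1 at 0.11 (0.663). SWI4 and SWI6, the subunit genes of SBF, which Slt2 also acts on, gave −0.51 (0.183) and −0.14 (0.645). BCK1, PKC1, SWI4 and SWI6 lie outside the naming rule and were chosen after their values were seen.

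Of 15 tested sensors and regulators of Rho1, 3 rose and 0 fell, with a median log2 fold change of 0.19 against 0.02 over all genes tested. RHO1 read 294, 326 and 293 RPKM and then 430, 443 and 481 RPKM (0.57 ± 0.10, adjusted p = 0.00424), a small change with groups that did not overlap. The sensor gene MID2 (0.84) and BAG7, which encodes a GTPase-activating protein of Rho1 (1.11), passed with all libraries but lost their calls without treated replicate 3 (adjusted p = 0.107 and 0.169). MID2 also overlaps JIP3. Among phosphatases that act on MAP kinases, 2 of 7 rose. PTP2, a tyrosine phosphatase gene, read 8.89, 12.1 and 8.57 RPKM and then 25, 36 and 28.1 RPKM (1.5 ± 0.17, adjusted p = 0.000148), and MSG5, a dual-specificity phosphatase gene, read 25, 25.1 and 25.6 RPKM and then 47.5, 58.1 and 65.1 RPKM (1.13 ± 0.14, adjusted p = 0.000196). Their relatives PTP3 (−0.16, adjusted p = 0.662) and SDP1 (0.18, 0.789) did not pass. The counts for the cascade and the phosphatases were the same whichever library was left out.

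The wall proteins did not move as a block. Of the 5 PIR genes 4 rose, against 4.02% of all genes, with a median of 1.12. PIR3 (chrXI:144401-145378, plus strand) read 4.08, 2.38 and 4.19 RPKM and then 42.3, 30.7 and 72.1 RPKM (3.38 ± 0.37, adjusted p = 9.4e-05), and HSP150, already among the most abundant transcripts, read 1077, 1032 and 929 RPKM and then 2475, 1586 and 2733 RPKM (1.13 ± 0.18, adjusted p = 0.0019). Treated replicate 2 was the lowest treated library in both genes. PIR5 (1.12) and CIS3 (0.64) lost their calls without treated replicate 3 (adjusted p = 0.145 and 0.182), and CIS3 had treated replicate 2 at 457 RPKM, under untreated replicate 1 at 463 RPKM. PIR1 read 515, 550 and 496 RPKM and then 626, 437 and 683 RPKM (0.14, adjusted p = 0.64).

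Of 20 GPI-type wall protein genes 5 rose and 3 fell, with a median of 0.01. CWP1 (chrXI:261132-261851, plus strand), a mannoprotein gene, read 146, 92.3 and 107 RPKM and then 785, 526 and 762 RPKM (2.58 ± 0.35, adjusted p = 0.00107). NCW2, annotated as a GPI protein of chitin-glucan assembly (chrXII:540809-541573, minus strand), read 45.7, 46.8 and 50.3 RPKM and then 272, 173 and 543 RPKM (2.61 ± 0.31, adjusted p = 0.000323). SED1, a major structural wall protein gene (chrIV:600793-601809, plus strand), read 675, 584 and 737 RPKM and then 3038, 1787 and 2904 RPKM (1.92 ± 0.21, adjusted p = 0.00012). The groups of these 3 genes did not overlap, as their ranking required, and treated replicate 2 was the lowest treated library in each. PST1 (1.54, adjusted p = 0.00122) and CCW14 (0.85, adjusted p = 0.0143, or 0.0814 without untreated replicate 2 and 0.0666 without treated replicate 3) were the other rises. The falls were in TIR1, a cold-shock mannoprotein gene (−1.03, adjusted p = 0.00993, or 0.0529 without untreated replicate 1), EGT2, whose product helps daughter cells detach (−0.74, adjusted p = 0.00419), and PLB2, a phospholipase gene (−0.72, adjusted p = 0.00803). CCW12, another abundant wall protein gene, gave 0.12 (adjusted p = 0.656). CCW14, PLB2 and CCW12 were named after their values were seen.

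Yapsins are GPI-anchored aspartyl proteases that process wall proteins and enzymes at the cell surface. Of 5 yapsin genes 4 rose, against 4.02% of all genes, with a median of 1.44. YPS3 (chrXII:388744-390270, minus strand) read 36.8, 33.3 and 33.3 RPKM and then 114, 122 and 247 RPKM (2.10 ± 0.22, adjusted p = 7.24e-05), with treated replicate 3 the highest. YPS1, its neighbour, read 49.1, 55.9 and 52.7 RPKM and then 110, 152 and 180 RPKM (1.44 ± 0.17, adjusted p = 0.000201). YPS6 rose by the same 1.44 from a low level, 2.47, 3.00 and 3.20 RPKM to 7.61, 10.9 and 10.3 RPKM (adjusted p = 0.00634). YPS7 (0.51, adjusted p = 0.0178) lost its call without untreated replicate 1 (0.0741) or treated replicate 3 (0.071). MKC7 read 90.1, 99.0 and 95.3 RPKM and then 74.9, 78.8 and 66.1 RPKM, with no overlap and in the other direction, but did not pass (−0.37, adjusted p = 0.0589).

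Of 13 glucan synthesis genes 4 rose and 0 fell, with a median of 0.43. Both catalytic subunit genes of the glucan synthase were among them. GSC2, the alternative subunit, read 11.4, 9.92 and 11.1 RPKM and then 23.0, 29.8 and 44.6 RPKM (1.45 ± 0.19, adjusted p = 0.000323), and FKS1, the subunit of growing cells, read 298.5, 233 and 283 RPKM and then 489, 370 and 516 RPKM (0.75 ± 0.15, adjusted p = 0.00855, or 0.0538 without untreated replicate 2). The groups of neither overlapped, and FKS1 stayed the more abundant. ROT1 (0.80, adjusted p = 0.00327) and KRE6 (0.60, adjusted p = 0.024, or 0.0919 without treated replicate 3), needed for the branched glucan of the wall, also rose.

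Of 20 genes of glucan remodelling and crosslinking 5 rose and 1 fell, with a median of 0.20. DFG5, a putative mannosidase gene needed for wall protein attachment, read 44.8, 36.3 and 45.8 RPKM and then 119, 128 and 200 RPKM (1.76 ± 0.17, adjusted p = 3.87e-05), and CRH1, a chitin to glucan crosslinking enzyme gene, read 162, 152 and 136 RPKM and then 391, 387 and 564 RPKM (1.55 ± 0.14, adjusted p = 2.18e-05). The glucanase genes EXG2 (0.95), BGL2 (0.81) and EXG1 (0.80) rose by less. SCW11, a glucanase gene of cell separation, fell (−0.63, adjusted p = 0.0106, or 0.054 without untreated replicate 1). The 5 rises held whichever library was left out, and GAS1, the main glucan elongase gene, gave 0.03 (adjusted p = 0.902) and was named after its values were seen.

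Chitin genes gave the most rises of the wall lists, 9 of 16 tested, against 4.02% of all genes, with 0 lower and a median of 0.51. The share was nevertheless higher among the 5 PIR and the 5 yapsin genes. Genes of precursor synthesis were among the chitin rises. GFA1, whose enzyme commits sugar to the amino sugar pathway, read 119, 137 and 140 RPKM and then 416, 463 and 371 RPKM (1.65 ± 0.11, adjusted p = 1.92e-06), and PCM1 read 98.0, 90.5 and 99.4 RPKM and then 255, 215 and 249 RPKM (1.31 ± 0.11, adjusted p = 1.08e-05). GNA1 and QRI1, which act between and after them, gave 0.26 and 0.03 and did not pass. Of the synthases, CHS1, the repair enzyme, rose from 37.7, 43.1 and 49.4 RPKM to 83.2, 93.4 and 87.9 RPKM (1.01 ± 0.15, adjusted p = 0.00108) and CHS3, which makes most wall chitin, from 53.5, 55.2 and 58.9 RPKM to 104, 122 and 96.9 RPKM (0.93 ± 0.11, adjusted p = 0.000195). CHS2, the synthase of the division septum, read 36.5, 26.8 and 37.5 RPKM and then 35.4, 33.4 and 31.6 RPKM (0.01, adjusted p = 0.979). Genes that carry Chs3 to the surface or activate it rose as well: CHS7 (0.97), CHS6 (0.71), CHS5 (0.61), BUD7 (0.57) and SKT5 (0.46). CHS6, CHS5 and BUD7 lost the call without untreated replicate 2 (adjusted p = 0.0754, 0.0976 and 0.0727) and without treated replicate 3 (0.0514, 0.0757 and 0.064), and SKT5 lost it without treated replicate 3 (0.157). The count of chitin rises was lowest, at 5, without untreated replicate 1 and also 5 without treated replicate 3. CHS1, CHS2, CHS5, CHS6, SKT5, GNA1 and QRI1 were named after their values were seen.

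**Figure D3:**
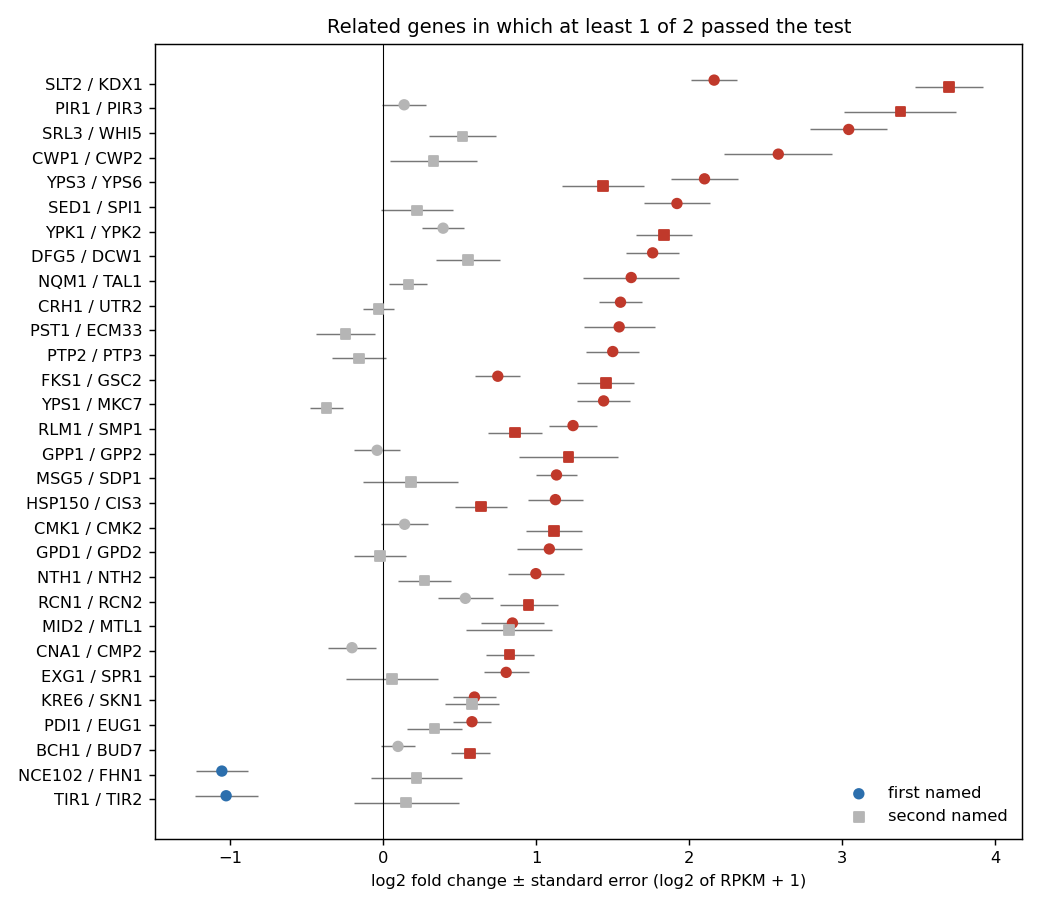
Log2 fold change with its standard error for both members of each listed pair of related genes in which at least 1 passed the test, red for a rise, blue for a fall and grey for no call, with circles for the gene named first and squares for the other. In SLT2 and KDX1, and in YPS3 and YPS6, both members rose, while in PIR1 and PIR3 or CRH1 and UTR2 a member near 0 stands beside one that rose.

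Among 44 listed pairs of related genes, the 2 members had unlike values in some and like values in others. KRE6 (0.60) and SKN1 (0.58) had like values, and HSP150 and CIS3 both rose. In SED1 (665 RPKM untreated) beside SPI1 (9.61 RPKM) the member that rose was the more abundant without the compound. The same held for EXG1 beside SPR1, MSG5 beside SDP1, NTH1 beside NTH2, PDI1 beside EUG1 and, by little, RCN2 beside RCN1. It also held for MID2 beside MTL1 and KRE6 beside SKN1, whose second members had like values but did not pass. In other pairs the member that rose was the less abundant. CWP1 rose from 115 ± 27.7 RPKM (SD, n = 3) while CWP2 read 2542, 2071 and 2175 RPKM and then 3734, 2319 and 2613 RPKM (0.33, adjusted p = 0.553). NQM1, a transaldolase gene, read 2.46, 1.61 and 1.72 RPKM and then 6.58, 10.2 and 7.38 RPKM (1.62, adjusted p = 0.0082), while its relative TAL1 stood at 435, 426 and 422 RPKM and then 425, 525 and 492 RPKM (0.16, adjusted p = 0.485). GPD1 and GPD2, the genes of glycerol phosphate dehydrogenase, began at like levels (112 ± 24.5 and 121 ± 6.55 RPKM, SD, n = 3) and gave 1.09 and −0.02. CRH1 was likewise the less abundant of its pair, and UTR2 read 407, 424 and 367 RPKM and then 375, 405 and 391 RPKM (−0.03, adjusted p = 0.899). PST1 (1.54) and ECM33 (−0.25), SRL3 (3.04) and WHI5 (0.52), YPK2 (1.83) and YPK1 (0.39), and DFG5 (1.76) and DCW1 (0.55) had the second of each not passing. The difference within pairs was not tested.

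Outside the wall, genes of protein folding in the endoplasmic reticulum gave small positive values throughout. All 24 tested chaperone, oxidative folding and unfolded protein response genes had a fold change above 0, 9 passed and 0 fell, and the median was 0.34. KAR2, the main lumenal chaperone gene, read 414, 391 and 499 RPKM and then 776, 867 and 662 RPKM (0.82 ± 0.12, adjusted p = 0.00122), and ERO1, the oxidase gene of disulfide formation, read 59.7, 64.2 and 63.7 RPKM and then 111, 148 and 95.6 RPKM (0.88 ± 0.15, adjusted p = 0.0033). The groups of both did not overlap. PDI1, the main disulfide isomerase gene, gave 0.58 (adjusted p = 0.0124, or 0.0727 without untreated replicate 2). The count was 2 without untreated replicate 2 and 6 without treated replicate 3. The 7 protein O-mannosyltransferase genes, 9 oligosaccharyltransferase genes and 21 GPI anchor genes gave 0 calls each, with medians of 0.10, −0.10 and 0.06. Of 18 Golgi mannan genes KTR2, a mannosyltransferase gene, was the single rise (10.8, 9.11 and 7.86 RPKM, then 25, 34.3 and 42.6 RPKM, 1.75 ± 0.19, adjusted p = 8.01e-05).

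Calcium and osmotic signalling genes rose in part. Of 16 genes of the calcineurin pathway 4 rose, against 4.02% of all genes. CMK2, a calmodulin-dependent kinase gene, read 17.7, 18.8 and 21.0 RPKM and then 40.6, 43.3 and 43.9 RPKM (1.12 ± 0.18, adjusted p = 0.00233), and CMP2, a catalytic subunit gene of calcineurin, gave 0.83 (adjusted p = 0.00713). The calcineurin regulator gene RCN2 gave 0.95 (adjusted p = 0.00947, or 0.0514 without untreated replicate 1) and the vacuolar calcium pump gene PMC1 0.64 (adjusted p = 0.0396, or 0.148 without untreated replicate 2 and 0.0929 without treated replicate 3). The transcription factor gene CRZ1, named after its values were seen, gave −0.03 (adjusted p = 0.926). Of 20 genes of the HOG pathway and glycerol metabolism 6 rose, against 4.02% of all genes, and 0 fell, with a median of 0.29. SSK22, a MAP kinase kinase kinase gene, read 12, 12.9 and 9.86 RPKM and then 22.5, 29.4 and 29.5 RPKM (1.16 ± 0.15, adjusted p = 0.00037). GPD1 read 109, 88.2 and 137 RPKM and then 223, 219 and 262 RPKM (1.09 ± 0.21, adjusted p = 0.0086, or 0.0516 without untreated replicate 2). GPP2, SSK1, PBS2 and HOG1 passed with values of 1.21, 0.73, 0.54 and 0.45. All 4 calls were lost without treated replicate 3 (adjusted p = 0.197, 0.0566, 0.156 and 0.0605), that of SSK1 also without untreated replicate 1 (0.0668) and that of HOG1 without untreated replicate 2 (0.135), and PBS2 was named after its values were seen. The count of the list was 1 without untreated replicate 2 and 2 without treated replicate 3.

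Genes of the plasma membrane moved singly. Among 15 genes of eisosomes and Sur7-family proteins, which mark furrows of the membrane, NCE102 fell from 231, 161 and 171 RPKM to 87.4, 95.2 and 83.4 RPKM (−1.06 ± 0.17, adjusted p = 0.00207) and PUN1 rose from 32.7, 29.2 and 30.2 RPKM to 60.9, 92.5 and 92.2 RPKM (1.36 ± 0.19, adjusted p = 0.000528). Neither pair of groups overlapped, which for NCE102 was a condition of its ranking. The core genes PIL1 (−0.15) and LSP1 (−0.07) did not pass. Of 28 sphingolipid genes 4 rose, against 4.02% of all genes. They were YPK2, SUR1 (0.92, or adjusted p = 0.0643 without untreated replicate 1 and 0.0569 without treated replicate 3), IPT1 (0.88) and ISC1 (0.51, or adjusted p = 0.197 without treated replicate 3), which encode a kinase, 2 enzymes of complex sphingolipid synthesis and a phospholipase. The 26 ergosterol and 18 phospholipid genes gave 0 calls, with medians of −0.06 in each.

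Several stress programs gave few calls. The 21 heat shock genes and 22 oxidative stress genes gave 0 calls each, with medians of −0.10 and −0.02, and of 25 genes of drug efflux and its regulators SGE1 was called (0.54, adjusted p = 0.0445, or 0.198 without untreated replicate 2 and 0.141 without treated replicate 3). PDR5, the main efflux pump gene and named after its values were seen, read 388, 319 and 347 RPKM and then 454, 526 and 688 RPKM (0.64, adjusted p = 0.0675). General stress genes had a median of 0.65 over 27 genes, all treated libraries lay above all untreated ones in 15, against 13.3% of all genes, and 3 rose, against 4.02% of all genes. HSP12, a membrane-associated stress protein gene likewise named, read 9.21, 9.22 and 3.61 RPKM and then 17.8, 34.2 and 57.9 RPKM (2.11 ± 0.68, adjusted p = 0.107). NQM1, RTC3 (1.34, adjusted p = 0.0193, or 0.0763 without treated replicate 3) and PNC1 (0.98, adjusted p = 0.0394, or 0.164 without untreated replicate 2 and 0.152 without treated replicate 3) were the calls. Of 18 trehalose and glycogen genes the neutral trehalase gene NTH1 rose (1.00, adjusted p = 0.00498). Of 20 vacuolar genes, mostly of proteases, PRB1 rose from 89.2, 84.8 and 95.4 RPKM to 225, 208 and 279 RPKM (1.38 ± 0.17, adjusted p = 0.000255) and APE1, an aminopeptidase gene, by 1.11 (adjusted p = 0.00947, or 0.0501 without untreated replicate 2).

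The largest ranked falls were smaller and more diverse. YLR112W, an open reading frame with no assigned function (chrXII:370791-371210, plus strand), read 10.2, 9.38 and 10.4 RPKM and then 1.75, 4.07 and 3.32 RPKM (−1.49 ± 0.26, adjusted p = 0.00358). OPT1, an oligopeptide and glutathione transporter gene (chrX:33850-36249, minus strand), read 74.7, 61.1 and 61.1 RPKM and then 31.6, 27.5 and 28.4 RPKM (−1.14 ± 0.12, adjusted p = 4.45e-05). It had the smallest adjusted p of the 15, and its treated values were close together. MRH1, a plasma membrane protein gene, fell from 453, 502 and 572 RPKM to 302, 311 and 183 RPKM (−0.97, adjusted p = 0.00924), and INA1, a membrane protein gene of unknown function, from 239, 217 and 204 RPKM to 133, 114 and 97.5 RPKM (−0.94, adjusted p = 0.000493). SHU2, TIR1, NIP7, LYS20, URB1, CIN5, ERV14 and UTP10, 8 of the 15, lost the call when 1 library was left out. Their highest adjusted p was 0.195 (SHU2), 0.0995 (UTP10), 0.0516 (NIP7), 0.0861 (LYS20) and 0.106 (URB1) without untreated replicate 2, 0.0529 (TIR1) and 0.142 (ERV14) without untreated replicate 1, and 0.175 (CIN5) without treated replicate 3. Without treated replicate 3 the calls of SHU2 (0.132), ERV14 (0.129) and UTP10 (0.0527) were lost too.

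Some genes of ribosome construction fell, by little. Of 93 tested ribosome assembly factor genes 24 fell and 0 rose, against the 2.03% of all genes that fell. The median was −0.45, and 3 of them had a value above 0. UTP20, of the small subunit processome, read 62.0, 72.5 and 61.2 RPKM and then 40.0, 42.1 and 25.5 RPKM (−0.88 ± 0.17, adjusted p = 0.00689), and URB1, of the early large subunit, read 36.4, 41.5 and 36.5 RPKM and then 23.7, 26.2 and 12.2 RPKM (−0.92 ± 0.22, adjusted p = 0.024, or 0.106 without untreated replicate 2). Treated replicate 3 was the lowest in both. By library, the median difference from the untreated mean was −0.43, −0.35 and −0.50 in treated replicates 1, 2 and 3, so all treated libraries lay on the same side. The count of calls, by contrast, depended on the libraries, with 1 without untreated replicate 2, 5 without treated replicate 3, 40 at the most with another library left out, and 13 under scaling to the coding total. Of 28 genes of RNA polymerases I and III 5 fell, among them RPA190 (170, 195 and 161 RPKM, then 109, 107 and 79.6 RPKM, −0.83 ± 0.14, adjusted p = 0.0025) and RPA135 (−0.68, adjusted p = 0.00368), the largest subunits of polymerase I. Without untreated replicate 1 the count was 2.

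The ribosomal proteins themselves had a median of −0.35 over 136 genes, with 72 below in all treated libraries, against 9.57% of all genes, and 6 calls. Their summed level was 223911 to 251777 RPKM in untreated and 170322 to 210769 RPKM in treated libraries, which did not overlap. The called genes were RPS16A, RPS16B, RPL22B, RPL30, RPS24B and RPS23B, and values of near-identical copies such as RPS16A and RPS16B are uncertain since the treatment of reads with several matches is not given. The count was 0 without treated replicate 3 (adjusted p = 0.091 to 0.188 for the 6 genes) and also without untreated replicate 1, and 15 at the most with another library left out. The 34 translation factor genes had a median of −0.33 and 0 calls, and up to 9 of them were called lower when 1 library was left out. With libraries of the same replicate number paired, 65 ribosomal protein genes and 8 translation factor genes were called lower.

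Genes of amino acid synthesis fell in part, with 6 of 49 lower, against 2.03% of all genes, 0 higher and a median of −0.22. LYS20, which encodes the first enzyme of lysine synthesis (282, 307 and 225 RPKM, then 139, 114 and 164 RPKM, −0.96 ± 0.21), and LYS2 (−0.51, adjusted p = 0.011) belong to the lysine pathway, and LEU9 (−0.74, or adjusted p = 0.0685 without treated replicate 3) and ILV5 (−0.47, or 0.149 without untreated replicate 1 and 0.0784 without treated replicate 3) to that of leucine and its precursors. The count was 1 without untreated replicate 1 and 2 without treated replicate 3. Of 29 sulfur genes 3 rose and 2 fell, the falls being MET6, the methionine synthase gene (−0.62, adjusted p = 0.0165, or 0.0725 without untreated replicate 1 and 0.0713 without treated replicate 3), and SAM3, a transporter gene of S-adenosylmethionine (−0.65, adjusted p = 0.0086). The rises were STR3 (0.85, or adjusted p = 0.107 without untreated replicate 2), MET3 (0.55, or 0.135 without untreated replicate 1 and 0.108 without treated replicate 3) and MET28 (1.13, or 0.202 without treated replicate 3). In energy metabolism FBP26 and PFK26, whose products break down and make an activator of glycolysis, both rose (1.33, adjusted p = 0.00204, and 0.92, adjusted p = 0.0157, or 0.0791 without untreated replicate 2 and 0.0566 without treated replicate 3). The tricarboxylic acid genes CIT1, LSC1 and LSC2 rose. CIT1 held whichever library was left out, and LSC1 and LSC2 were lost without untreated replicate 2 (adjusted p = 0.215 and 0.0997) and without treated replicate 3 (0.135 and 0.0521).

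Of 24 phosphate starvation genes 12 lay lower in all treated libraries, against 9.57% of all genes, the median was −0.28, and 0 were called lower. GDE1, a glycerophosphocholine phosphodiesterase gene, was the single rise (1.06, adjusted p = 0.0106, or 0.0534 without untreated replicate 2 and 0.0504 without treated replicate 3). PHO12, an acid phosphatase gene named here after its values were seen, read 571, 559 and 534 RPKM and then 196, 216 and 196 RPKM (−1.45 ± 0.64, adjusted p = 0.226). The spread in the test is shared with the slt2 libraries, in which PHO12 read 483 ± 285 RPKM without the compound (SD, n = 3), and in a fit of the 6 wild-type libraries alone 5 genes of the list fell, PHO12 among them with an adjusted p of 0.000155. Over all genes that fit gave fewer calls, 146 higher and 35 lower against 245 and 124. Lower calls were 2 against 24 in ribosome assembly, 1 against 6 in ribosomal proteins and 1 against 6 in amino acid synthesis. Higher calls were 3 against 9 in protein folding of the endoplasmic reticulum, 5 against 9 in chitin genes and unchanged at 3 in the Slt2 cascade. PHO11 is nearly identical to PHO12, so their values are not independent.

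Genes of mating and of the cell cycle changed singly. Of 28 mating genes PRM5 and PRM10 rose and 0 fell, with a median of −0.13 that was 0.05, 0.16 and −0.53 in treated replicates 1, 2 and 3. AGA1, an agglutinin subunit gene named after its values were seen, read 26.8, 16.4 and 20.5 RPKM and then 19.9, 7.19 and 4.87 RPKM (−1.12, adjusted p = 0.104). Of 29 genes of the G1 to S transition SRL3 rose and RNR1 fell (−0.44, adjusted p = 0.0446, or 0.142 without untreated replicate 1 and 0.13 without treated replicate 3). The G1 cyclin genes CLN1 and CLN2 gave −0.06 and 0.01. The 20 mitosis genes and 13 tested replication origin genes gave 0 calls, and of 11 histone genes HTB1 fell (−0.68, adjusted p = 0.0265, or 0.11 without treated replicate 3). Of 12 genes of daughter cell separation, EGT2 and SCW11 fell. The median of that list was −0.18, −0.05 and −0.65 in treated replicates 1, 2 and 3, so that treated replicate 3 was the lowest here too.

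**Figure D4:**
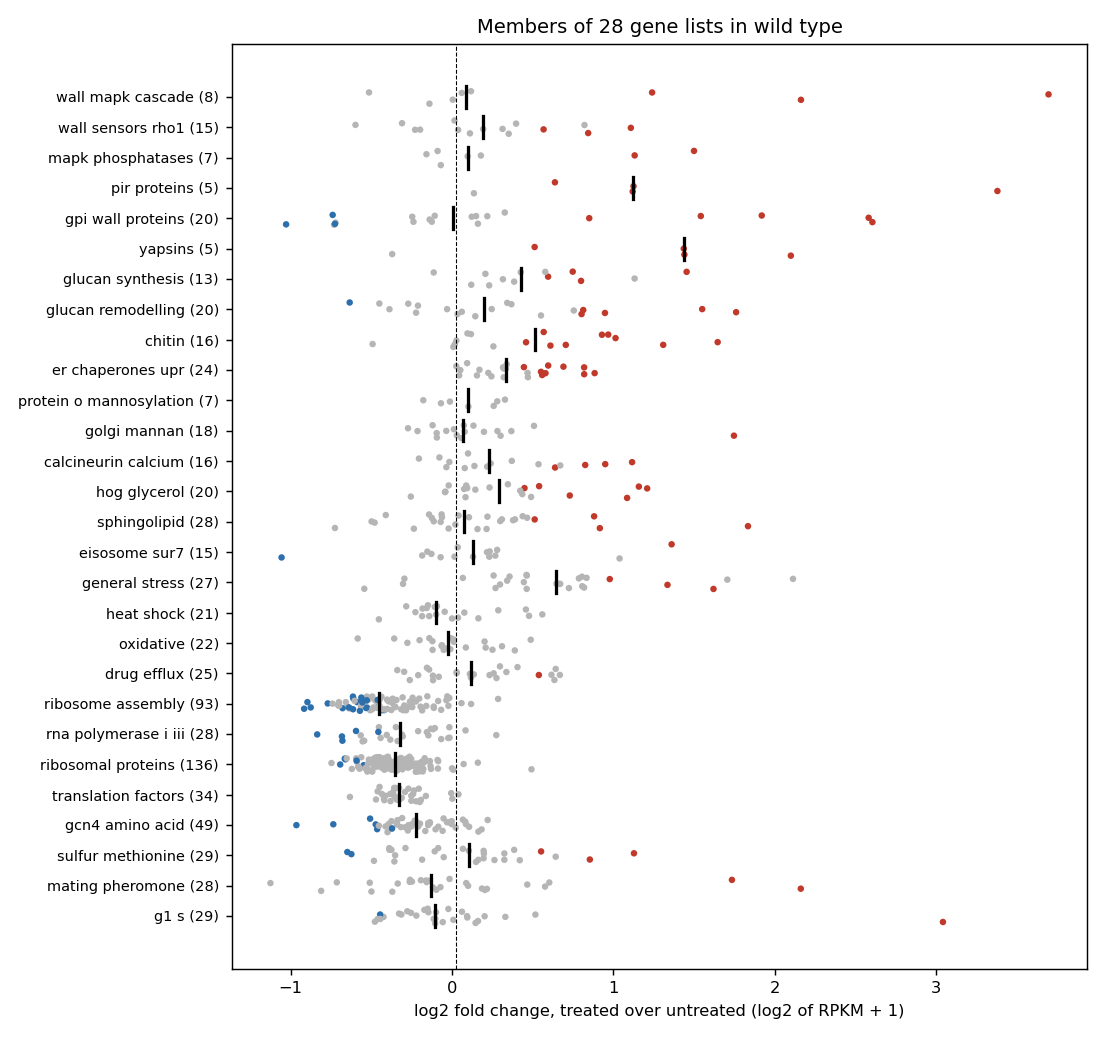
Log2 fold change of each tested member of 28 gene lists, 1 row per list with the number tested, red for a rise, blue for a fall and grey for no call, with a bar at the median of the list and a dashed line at 0.02, the median of all genes. Medians lie farthest right in yapsins (1.44) and PIR proteins (1.12) and farthest left in ribosome assembly (−0.45).

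Other motifs were searched in the same windows. The RRPE element, searched as its usual consensus, which accompanies PAC in genes of ribosome assembly, lay before 20 of the 124 genes that fell (16.1%), 3 of those that rose (1.22%) and 2.90% of all. The unfolded protein response element CAGCGTG lay before 17 of the genes that rose (6.94%), 1.61% of those that fell and 2.42% of all. The stress response element AGGGG lay before 44.5% of the rises, 28.2% of the falls and 33.8% of all, and the site of the calcineurin factor Crz1, searched as GNGGCNCA, before 12.2%, 7.26% and 7.74%. The letters of none of these motifs are contained in another. For the SBF box CGCGAAA, the pheromone response element TGAAACA and the multidrug element CCGCGG the shares in the rises were 4.90%, 12.7% and 3.27%, and in all genes 5.78%, 12% and 3.11%. All were searched on both strands. Matches of different motifs may share bases within a window. Over all 102 tested genes with an Rlm1 consensus the median log2 fold change was 0.25, so that most genes with these letters changed little.

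**Figure D5:**
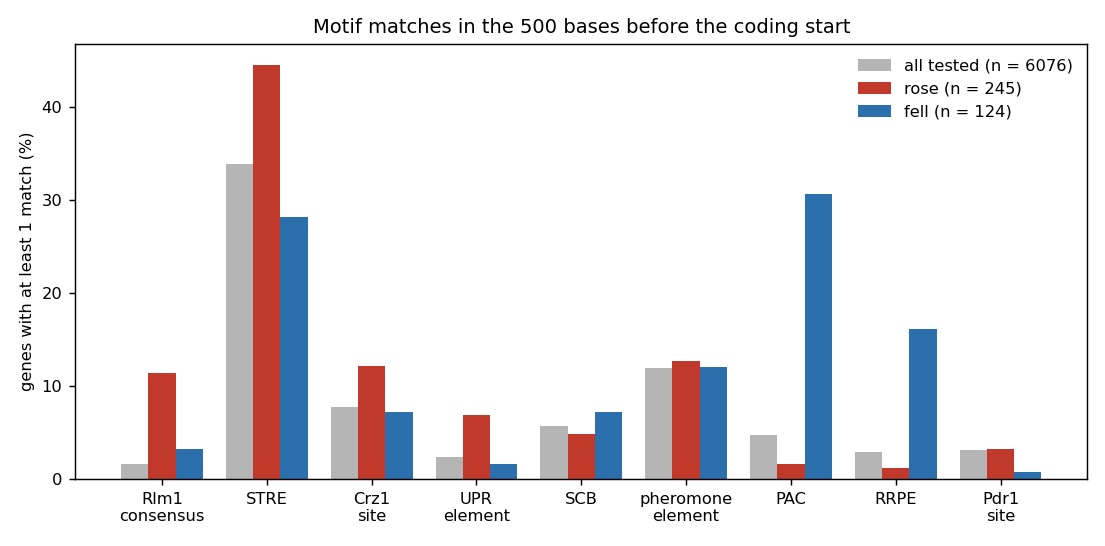
Share of genes (%) with at least 1 match to each of 9 motifs in the 500 bases before the coding start, for all 6076 tested genes (grey), the 245 that rose (red) and the 124 that fell (blue). Bars for rises stand above the others for the Rlm1 consensus (11.4%), and bars for falls for PAC (30.6%) and RRPE (16.1%).

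Some genes that rose were neighbours. Of 1424 pairs of divergent neighbours 10 had both members higher, and in 2 of these pairs the 2 genes shared an Rlm1 consensus. RIM21, a sensor gene of the pH-responsive pathway, and MSB3, a gene of a GTPase-activating protein, start from the 2 sides of chrXIV:80554-80583 and rose by 1.28 and 1.53. ATP22 and SBE2 start from the 2 sides of chrIV:1178379-1178408 and rose by 0.82 and 0.80, and the call of ATP22 was lost without untreated replicate 1 (adjusted p = 0.112) and without treated replicate 3 (0.0775). These 4 genes and SRP40 were named after their values were seen. The first site reads, along the strand of MSB3, as follows.
MSB3: aagaaagtagCTAAAAATAGctaaagggac
RLM1 and YPL088W are also divergent neighbours, with 814 bases between them. Of 2703 tandem pairs 17 had both members higher. They included YPS1 and YPS3, YPK2 and YMR103C (155 bases apart), and HHY1 and PCM1 (291 bases apart). The open reading frames YKL102C, HHY1 and YMR103C, annotated with no assigned function, each lie next to a listed gene that rose. YKL102C (306 bases long, chrXI:248062-248367, minus strand) read 1.86, 1.17 and 1.30 RPKM and then 27.6, 21.1 and 34.7 RPKM (3.54 ± 0.28, adjusted p = 7.81e-06) beside APE1, and GFA1 follows next. HHY1 (309 bases long) read 1.84, 0 and 0.43 RPKM and then 6.52, 11.1 and 18.1 RPKM (2.91 ± 0.41, adjusted p = 0.000774). In genes this short 1 read is worth more RPKM than at 1 kb. The untreated values of both therefore lay near or below the floor of 3 reads. Of 1480 convergent pairs 6 had both members higher and 5 had members that moved in opposite directions. Opposite directions were also seen in 2 divergent and 3 tandem pairs. At least 1 member was higher in 100 divergent, 220 tandem and 99 convergent pairs, and whether orientation mattered was not tested. Convergent pairs with opposite directions included SED1 (1.92) and SHU2 (−1.14), SRL3 (3.04) and SRP40 (−0.63, or adjusted p = 0.105 without treated replicate 3), and PUN1 (1.36) and INA1 (−0.94, 169 bases apart). Whether reads were assigned by strand is not given, and reads that run past the end of a gene were not examined.

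Whether a wild-type change differed from that of the slt2 mutant was asked by the difference of the 2 responses, which was called in 105 of 6102 genes (1.72%). It was called in 59 of the 245 rises and 4 of the 124 falls, but the wild-type response enters this difference, so these shares are not independent of the choice of the genes. PST1, HSP150 and PIR1 had negative responses in slt2 (−1.25, −1.0 and −1.51), with an adjusted p of the difference of 0.000456, 0.000489 and 0.000725. GFA1 gave −0.33 in slt2 (adjusted p of the difference 3.31e-05) and MSG5 −0.05 (0.00474), where wild type gave 1.65 and 1.13. PTP2 (0.56 in slt2, adjusted p of the difference 0.0781), CWP1 (1.71, 0.552), NCW2 (1.57, 0.365), YPS1 (2.10, 0.278) and KAR2 (0.16, 0.0869) did not pass this test, which does not show that the strains responded alike.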

How the data were processed

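The values were a table of RPKM that the authors deposited, 1 column per library, per the file headers, and its decimal commas were converted to points. Per the labels' protocols, libraries were made with a strand-specific kit after a depletion step, and per the submitters' processing notes the genome build was R64. The aligner, the counting program, the use of strand and the handling of reads with several matches were not given in the sources used here. The growth text names 2 h of growth where the treatment text names 1 h with the compound. Reads per library were recovered from the smallest steps of the RPKM values, of which 99.4 to 99.7% below 60 reads were whole within 0.05 of a read. A floor of 3 reads covers counting error only.

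From the table, log2(RPKM + 1) was fitted with limma 3.58.1 in R 4.3.3 (trended, robust variances, 1 mean per group over all 12 libraries), with 2-sided p-values adjusted by Benjamini-Hochberg over 6102 genes and a threshold of 0.05. Fold changes on this scale understate those of low genes. The test was also run on simulated data with independent noise in each gene and library, so shifts of a whole library were not covered. It called 20 of 50 genes with a log2 change of 0.585, 45 of 50 at 1.0 and 39 of 50 at −1.0. Of 5902 unchanged genes it called 8. Genes with a change near 0.585 can thus be missed. Where a change is given as ±, the error is limma's standard error. The text names the 20 largest rises and 15 largest falls among called protein-coding genes, outside Ty elements, with non-overlapping groups, the higher of which averaged 5 RPKM or more, up to 4 called members per gene list with the smallest adjusted p, and the listed related pairs. The gene lists, pairs and other members were chosen with earlier results of these data known, so no list was tested. Coordinates and sequences come from the RefSeq R64 annotation and genome, and windows before start codons may include transcribed bases. Alternatives covered the libraries used, scaling, pseudocount, filter, variance model, library weights and rRNA share. A result that is withheld is not reported here.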

Additional observations from a re-analysis of the deposited data

Results flagged for a closer look

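The response differed between wild type and slt2, by the interaction test in limma with Benjamini-Hochberg adjustment, in 105 genes. The following 13 are among the ranked rises and falls of wild type, and each value is the log2 response of slt2 minus that of wild type. The difference was −3.77 for KDX1, −3.74 for YKL102C, −3.55 for PIR3 and −3.20 for YPL088W. It was −2.58 for CRG1, −2.55 for YMR103C and −2.41 for SRL3. It was −1.65 for PRM5, −1.64 for AFR1, −1.59 for YPK2 and −1.57 for SED1. Among the falls it was 0.74 for OPT1 and 1.70 for CIN5. All 13 were chosen by the size of the wild-type change, which is part of the difference.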

How the results depend on the processing

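For the wild type response to poacic acid, the number of genes called, 369, was 181 when the 6 wild-type libraries were fitted alone, 696 with a weight for each library and 243 with the rRNA share as a covariate. It ranged from 155 to 569 when 1 library was left out, lowest without untreated replicate 2 and highest without treated replicate 2. It was 164 without untreated replicate 1 and 173 without treated replicate 3. Under the other pseudocounts, filters, scalings and variance model it was 283 to 388. The difference of responses ranged from 74 to 162 calls when 1 library was left out, with 105 from all libraries. The cause of these shifts was not tested. Of the 183 named genes 129 were called, and 66 of these calls held in every fit with 1 library left out. None of the named genes reversed its direction in a call under any of these settings. Of the 129 calls, 57 were lost without untreated replicate 2, 52 without untreated replicate 1 and 47 without treated replicate 3. Falls depended more on the libraries than rises: 29 to 259 against 126 to 310.

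For the wild type response to poacic acid, a replicate block, which pairs libraries of the same number, gave 681 calls (370 higher, 311 lower), of which 362 were shared with the fit without it, and 174 calls for the difference. Under this block the count of lower genes went from 24 to 44 in ribosome assembly, 6 to 65 in ribosomal proteins, 0 to 8 in translation factors and 0 to 9 in phosphate genes. The deviations of same-numbered libraries from their group means correlated at −0.12, 0.37 and −0.01 across 5494 genes, so the numbers were not taken to pair the samples. Only those of replicate 2 correlated best with their own number, while untreated replicate 1 with treated replicate 3 gave 0.26 and untreated replicate 3 with treated replicate 1 gave 0.28, which is a hint from the data, not the design.

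Depth set a floor of 0.285 to 0.550 RPKM for a gene of 1 kb, so changes of genes near 1 RPKM are the least certain.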

Other observations

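Genes outside the gene lists rose as well, and the following were chosen after their values were seen. FLC2, which encodes a putative flavin transporter of the endoplasmic reticulum, read 45.1, 43.7 and 37.7 RPKM without and 125, 142 and 178 RPKM with poacic acid (log2 fold change 1.78 ± 0.15, limma, adjusted p = 1.31e-05). Its relative FLC1 read 70.1, 63.5 and 62.2 RPKM and then 107, 148 and 194 RPKM (1.15 ± 0.16, adjusted p = 0.000774). The groups of both genes did not overlap. RCR1, whose product lowers chitin deposition when overproduced, read 19.1, 19.8 and 20 RPKM and then 51.7, 55.3 and 84.6 RPKM (1.62 ± 0.21, adjusted p = 0.000323). Genes of GTPase-activating proteins of Rab GTPases rose by 1.53 (MSB3), 1.07 (MSB4), 0.92 (GYP7) and 0.88 (GYL1), and all 4 calls held whichever library was left out. ASK10, a regulator gene of the glycerol channel Fps1, rose by 1.23 (adjusted p = 0.000391), the phosphatase gene PPZ1 by 0.96 (adjusted p = 0.0022), and SSD1, which encodes an RNA-binding protein of wall mRNAs, by 0.73 (adjusted p = 0.00118).

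Falls outside the lists included FAA4 and FAA3, fatty acyl-CoA synthetase genes. FAA4 read 247, 243 and 256 RPKM and then 168, 136 and 132 RPKM (−0.78 ± 0.11, adjusted p = 0.000774), and FAA3 fell by 0.68 on the log2 scale (adjusted p = 0.00662). YHB1, the flavohemoglobin gene, read 587, 666 and 577 RPKM and then 387, 420 and 286 RPKM (−0.76 ± 0.13, adjusted p = 0.00435). Of genes of purine metabolism, HPT1 gave −0.70 (adjusted p = 0.00855), AAH1 −0.70 (adjusted p = 0.0243, or 0.101 without treated replicate 3) and IMD4 −0.68 (adjusted p = 0.0409, or 0.163 without treated replicate 3). The promoter windows of these 3 genes each held a PAC match.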
